A study of Mus musculus with 6 samples.

Results

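This account describes 42 genes of the cell cycle, arranged by the phase in which they act, in the dorsal pancreas of mouse embryos that lack Bicc1. The members were taken from a list of gene symbols: 23 genes of the G1/S transition and of DNA replication, 16 genes of G2/M and mitosis, and 3 genes of cyclin-dependent kinase (CDK) inhibitors. All 42 were found among the 24389 genes of the deposited files, and all 42 passed the filter on low values (mean over the 6 libraries of 1 or more), which left 13911 genes to test.

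RNA was sequenced from dorsal pancreata of embryos at stage E13.5 (days of gestation), from 3 libraries labelled Bicaudal C1 knockout (KO) and 3 labelled wild type (WT), all on a mixed C57BL/6 and ICR background. Bicc1 encodes an RNA-binding protein, and the study asked what its loss does to the mRNA profile of the pancreas. The labels give neither the knockout allele nor whether a library was made from 1 embryo or from a pool, so the p-values below measure the spread between these libraries, which may be partly technical. The tissue was taken whole, so less RNA per cell and fewer cells of a kind cannot be told apart.

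Bicc1 itself, the check on the labels, had values of 3.96, 4.91 and 4.48 in libraries KO 1 to KO 3, against 19.7, 19.5 and 18.2 in WT 1 to WT 3 (values are always given in this order). The 2 groups were far apart, and some signal over the gene was left in each KO library. The sum of all values per library lay between 674295 and 716255. These sums are not read totals, so the sequencing depth is unknown.

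A dividing cell passes from G1 into S phase when D-type cyclins with Cdk4 or Cdk6, and then cyclin E with Cdk2, release the E2F transcription factors. E2F proteins switch on the genes that license replication origins and make nucleotides. Later, cyclin A and cyclin B with Cdk1 drive entry into mitosis, and kinases, motor proteins and the spindle checkpoint part the chromosomes. In the embryonic pancreas, epithelial progenitors and the mesenchyme around them divide actively at this stage, whereas cells that start endocrine differentiation leave the cycle.

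Promoter sequence, which the list of symbols did not use, was searched for short words known from the genes of each phase. RefSeq promoter windows (build GRCm38.p6, from 250 bases before to 50 bases after a gene's start) were matched for 36 of the 42 members, and Ccnd1, Ccnd2, Ccne2, Mcm4, Ccna2 and Aurkb had no entry. E2F-type words were searched as TTTCCCGC, TTTGGCGC, TTTCGCGC or TTTGCCGC, and the cell cycle homology region (CHR), an element known from mitotic genes, as TTTGAA, all on both strands. An E2F-type word was found in 7 of 19 matched G1/S and replication genes (36.8%) and in 1 of 14 G2/M genes (7.14%), against 2.60% of 27025 genes with a window. The CHR word was found in 10 of 14 G2/M genes (71.4%) and in 2 of 19 G1/S genes (10.5%), against 20.2% of all genes. Cdk1 held both words, and most matched G1/S genes held no E2F-type word. None of the 3 inhibitor genes held either word in its windows. These matches are a description of the letters and not of factor binding.

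The following 60-base stretches upstream of the start, read along the strand of the gene, show one kind of word in 3 replication genes and the other in 3 mitotic genes. Capitals mark the E2F-type words in the first 3 and the CHR words in the last 3. In Mcm5 and Mcm6 an E2F-type word on each strand overlap in a shared core, in Cdc6 the word lies on the opposite strand, and in Mki67 the CHR word occurs 2 times.
Mcm5, chr8:75109341-75109400, plus strand: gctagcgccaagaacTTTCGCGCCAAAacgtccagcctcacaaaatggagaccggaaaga
Mcm6, chr1:128359771-128359830, minus strand: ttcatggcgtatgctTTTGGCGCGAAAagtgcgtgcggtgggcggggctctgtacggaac
Cdc6, chr11:98907998-98908057, plus strand: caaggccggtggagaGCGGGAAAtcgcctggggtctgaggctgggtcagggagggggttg
Cdk1, chr10:69352939-69352998, minus strand: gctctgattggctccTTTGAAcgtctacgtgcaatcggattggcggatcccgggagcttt
Cdc20, chr4:118437344-118437403, minus strand: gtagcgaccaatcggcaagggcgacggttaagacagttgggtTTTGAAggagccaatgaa
Mki67, chr7:135716451-135716510, minus strand: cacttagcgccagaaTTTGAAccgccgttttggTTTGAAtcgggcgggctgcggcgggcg

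Cell cycle genes differed little between KO and WT pancreas at the precision of 3 libraries per group, and both phases held genes on either side of no change. No member passed the test: 0 of 42 had an adjusted p under 0.05 in limma with Benjamini-Hochberg adjustment over all genes, where 0.0144% of genes passed (2 of 13911, both lower in KO, one of them Bicc1). The lowest adjusted p of a member was 0.47. At an unadjusted p under 0.05, 2 members were lower in KO (Ccne2 and Ccna2, with 4.36% of all genes so) and 0 were higher (5.89% of all genes). Without WT 3 there were 7 such members, Ccna2, Ccne2, Ccnd3, Cdk4, E2f1, Kif11 and Rrm2, and 3108 such genes in all in place of 1426. The members' log2 changes ran from -0.31 in Ccne2 to 0.28 in Ccnd3. In 37 of 42 the unadjusted 95% interval of the change lay within 0.5 log2 units of no change (1.41-fold), and the exceptions were Ccnd3, Cdk6, E2f1, Mki67 and Cdkn1a. All log2 changes here are KO minus WT on log2(value + 1), a scale on which the change of low genes is understated.

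**Figure D1:**
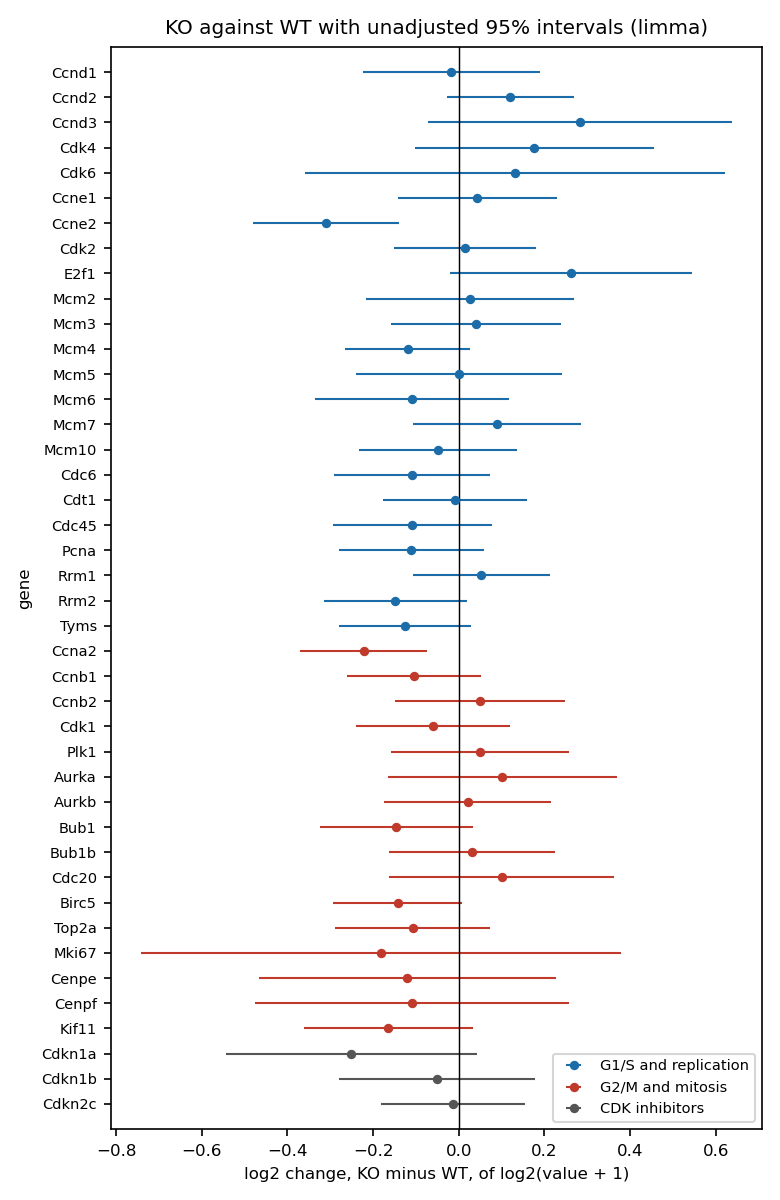
Log2 change of each member, KO minus WT, on log2(value + 1) (points), with unadjusted 95% intervals from limma (bars, 3 libraries per group), coloured by phase. Changes run from -0.31 (Ccne2) to 0.28 (Ccnd3), and only the intervals of Ccne2 and Ccna2 lie wholly to one side of 0.

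Of the G1/S and replication genes 12 had a higher and 11 a lower mean log2 value in KO, with a median change of 0.0011. Of the G2/M and mitosis genes 6 were higher and 10 lower, with a median change of -0.11 (-0.010 without KO 1 and -0.0085 without WT 2), and all 3 inhibitors were lower, with a median of -0.051. Over all genes tested, 46.5% were lower and the median was 0.014. The median deviation of the G1/S genes from their own mean over the libraries, less that of the G2/M genes, was 0.028, -0.039 and -0.0041 in KO 1 to KO 3 and -0.071, -0.044 and 0.0022 in WT 1 to WT 3. The groups overlapped, so the balance between the phases did not separate the genotypes.

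Non-overlap of the libraries was more frequent in 1 direction. In 8 of 42 members (19.0%) the highest KO value was under the lowest WT value, as in 8.77% of all genes, and in 1 member (2.38%) the reverse held, as in 7.67% of all genes. The 8 were Ccne2, Mcm4, Cdc45, Rrm2, Tyms, Ccna2, Ccnb1 and Birc5, and the 1 was Ccnd2. After correction of each library for the GC content of genes, described further on, 2 members (4.76%) lay wholly below (Ccne2 and Cdkn1a), as in 4.77% of all genes, and 1 (Ccnd2, 2.38%) wholly above, as in 8.94% of all genes.

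Of the 5 genes of D-type cyclins and their kinases, which open G1, 4 had a higher mean log2 value in KO and 1, Ccnd1, a lower one, against 46.5% of all genes lower. None passed the test (lowest limma adjusted p 0.48), and 4 of the 5 overlapped between the groups. Ccnd2, a D-type cyclin, was 77.6, 79.0 and 77.3 in KO and 72.9, 73.7 and 68.4 in WT. All KO values were above all WT values, by a log2 change of 0.12 (SE 0.063, limma adjusted p 0.48). The change stayed positive in every alternative fit, from 0.088 to 0.17. It was 0.17 after GC correction, with an unadjusted p of 0.015 and an adjusted p of 0.56 in limma, and over all alternatives the adjusted p ran from 0.41 to 0.91.

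Ccnd3, another D-type cyclin, was 67.6, 71.5 and 59.3 in KO and 51.4, 44.8 and 68.2 in WT, so WT 3 lay among the KO libraries. Its log2 change of 0.28 (95% interval -0.071 to 0.64) became 0.14 after GC correction and 0.45 without WT 3. Cdk4, a partner kinase of these cyclins, had the same 3 highest libraries, with 194.1, 197.3 and 166.2 in KO and 159.0, 144.6 and 191.4 in WT, a log2 change of 0.18 and 0.11 after GC correction. In both genes KO 1, KO 2 and WT 3 were the high libraries, and their genotypes differ.

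Ccnd1 and Cdk6 complete this step. Ccnd1 was 55.8, 62.3 and 50.5 in KO and 55.3, 55.6 and 59.1 in WT, with means of 56.2 ± 5.91 and 56.7 ± 2.09 (SD, n = 3 each) that differed by less than the spread. Cdk6 was 3.46, 5.53 and 3.67 in KO and 3.27, 5.25 and 2.89 in WT. It was high in 1 library of each genotype, KO 2 and WT 2.

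The cyclin E genes, which act with Cdk2 at entry into S phase, were Ccne2, with groups apart, and Ccne1, with overlap. Ccne2 was 20.1, 21.4 and 22.3 in KO and 27.9, 26.9 and 25.1 in WT, with no overlap. The KO libraries averaged 21.3 ± 1.08 and the WT libraries 26.6 ± 1.40 (SD, n = 3 each), so KO stood at 79.9% of WT, a log2 change of -0.31 (SE 0.073, unadjusted p 0.0033, limma adjusted p 0.47). The change stayed negative in every alternative fit, from -0.35 to -0.14, and its adjusted p ranged from 0.14 to 0.91. After GC correction it was -0.16 (unadjusted p 0.040). Ccne2 has the lowest transcript GC content of the members, at 36.3%.

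Ccne1 was 8.03, 8.22 and 7.83 in KO and 7.87, 7.09 and 8.36 in WT, and its groups overlapped. Within a library the ratio of Ccne2 to Ccne1 does not depend on the scaling of that library. It was 2.51, 2.61 and 2.84 in KO and 3.54, 3.80 and 3.00 in WT. The KO ratios were all lower, which gave an exact two-sided permutation p of 0.1, the smallest that 3 against 3 libraries allow. This ratio was chosen after the values were seen, and the transcript GC content of Ccne1 is 52.7%, well above that of Ccne2.

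Cdk2, the kinase of cyclin E, was 15.9, 17.1 and 17.5 in KO and 17.4, 16.7 and 15.9 in WT, with no difference beyond the spread (95% interval of the log2 change -0.15 to 0.18). E2f1, an activator of the S phase genes, was 10.1, 12.2 and 10.4 in KO and 8.82, 7.60 and 10.4 in WT. WT 3 again lay among the KO libraries, and the log2 change of 0.26 was 0.081 after GC correction.

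**Figure D2:**
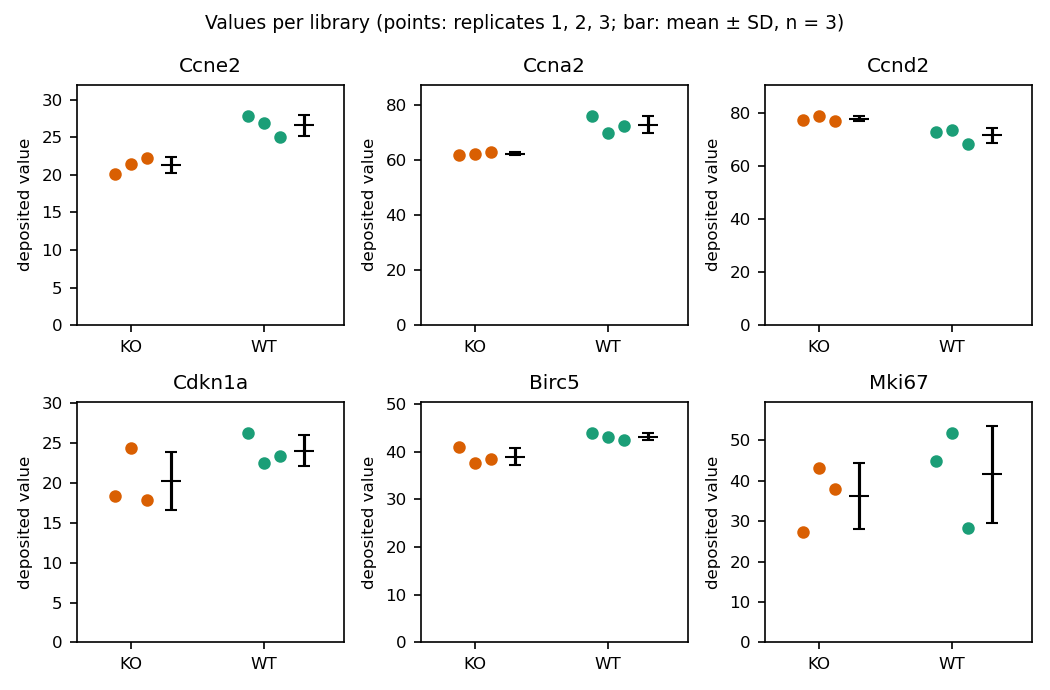
Deposited values (linear axis from 0) of 6 members in each library, with KO and WT on the x axis; points are replicates 1, 2 and 3 from left to right, and the bar beside them is the mean with its SD (n = 3). Ccne2, Ccna2 and Birc5 are lower in all KO libraries, Ccnd2 is higher in all, and Cdkn1a and Mki67 overlap.

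Genes that license and fire replication origins stood close to no change. The Mcm2 to Mcm7 proteins form the helicase that Cdc6 and Cdt1 load onto origins and that Cdc45 helps to activate, and Mcm10 acts at the same step. Of these 10 genes 4 had a higher and 6 a lower mean log2 value in KO, with a median of -0.028 and a range of -0.12 to 0.089. After GC correction 1 was higher and 9 lower, with a median of -0.034.

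Mcm4 was 47.2, 46.4 and 49.5 in KO and 52.9, 51.8 and 50.8 in WT, so that all KO values were below all WT values. Its log2 change was -0.12 (SE 0.063, limma adjusted p 0.48) and -0.036 after GC correction. Cdc45 was 1.72, 1.70 and 1.76 in KO and 2.13, 1.79 and 1.91 in WT, also without overlap, with a log2 change of -0.11 and -0.088 after GC correction. Both differences were small beside the interval of the test, which for Cdc45 ran from -0.29 to 0.077.

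Mcm6, another subunit of this helicase, had a log2 change of -0.11 close to that of Mcm4, but its groups overlapped. Mcm7 was 44.9, 46.7 and 39.4 in KO and 40.5, 39.1 and 43.2 in WT, with a log2 change of 0.089. Mcm5 was 27.9, 30.7 and 26.5 in KO and 28.5, 24.9 and 31.8 in WT, with means that were nearly equal (28.4 ± 2.13 and 28.4 ± 3.45, SD, n = 3 each). Differences between the subunits were not tested. Mcm2, Mcm3 and Mcm10 overlapped between the groups as well, as did the loading factors: Cdt1 means were 8.14 ± 0.477 in KO and 8.19 ± 0.128 in WT, and Cdc6 means were 12.4 ± 0.967 and 13.4 ± 0.452 (SD, n = 3 each).

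Of the 4 genes of the replication clamp and of nucleotide synthesis 3 were lower in KO. Rrm2, the regulated subunit of ribonucleotide reductase, was 32.9, 29.7 and 31.9 in KO and 36.4, 35.3 and 33.2 in WT, and Tyms, thymidylate synthase, was 13.4, 13.6 and 12.6 against 14.5, 14.7 and 14.2. In each the libraries did not overlap, with log2 changes of -0.15 (SE 0.072) and -0.12 (SE 0.066) and limma adjusted p of 0.47 and 0.48. After GC correction these changes were -0.074 and -0.063.

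Pcna, the sliding clamp of DNA polymerase, was 125.8, 133.1 and 118.6 in KO and 141.5, 131.3 and 134.6 in WT. KO 2 lay above WT 2, and the log2 change of -0.11 became -0.024 after GC correction. Rrm1, the other reductase subunit, was 33.2, 32.1 and 30.0 in KO and 29.8, 30.3 and 31.7 in WT, with overlap and a slightly higher mean in KO. The 2 reductase subunits thus leaned in opposite directions, a difference that was not tested.

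Cyclin A and the B cyclins lead the G2/M genes. Ccna2, the cyclin A gene of dividing somatic cells, was 61.6, 62.2 and 62.8 in KO and 76.0, 69.9 and 72.4 in WT. The KO values lay within a narrow band under all WT values, and the KO mean was 85.5% of the WT mean. The log2 change was -0.22 (SE 0.063, unadjusted p 0.0090, limma adjusted p 0.47), negative in every alternative fit, and -0.15 after GC correction, where the unadjusted p was 0.052.

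Ccnb1 was 43.3, 41.3 and 41.97 in KO and 48.1, 43.5 and 44.7 in WT, without overlap but with KO 1 close to WT 2. Its log2 change of -0.10 was -0.0034 after GC correction and 0.018 after correction for GC content and transcript length. Ccnb2, the second B-type cyclin, was 19.1, 20.0 and 17.3 in KO and 17.7, 17.1 and 19.6 in WT. Cdk1, the kinase that these cyclins activate, was 35.6, 36.4 and 37.7 in KO and 41.8, 36.1 and 36.9 in WT, and only WT 1 stood above the others. The ratio of Ccna2 to Ccnb2, also chosen after the values were seen, was lower in all KO libraries, at 3.22, 3.11 and 3.63 against 4.29, 4.09 and 3.68 (exact two-sided permutation p 0.1, again the smallest possible). The ratio of Ccnb1 to Ccnb2 (exact permutation p 0.2) and that of Mki67 to Top2a (exact permutation p 0.7) overlapped between the groups. Adjusted over these 4 ratios, the permutation p was 0.2 for both of the ratios that did not overlap. The numerators of both, Ccne2 and Ccna2, already had groups apart, and the adjustment does not cover that choice.

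Mitotic kinases and checkpoint genes were divided. Plk1 and Aurka act at centrosomes and the spindle, Aurkb and Birc5 (survivin) in the chromosomal passenger complex, Bub1 and Bub1b in the spindle checkpoint, and Cdc20 in the complex that ends mitosis. Of the 7 genes 5 had a higher and 2 a lower mean log2 value in KO, with a median of 0.031, and after GC correction 2 were higher and 5 lower, with a median of -0.018.

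Birc5 was 40.9, 37.7 and 38.4 in KO and 43.9, 43.0 and 42.5 in WT, without overlap, with a log2 change of -0.14 (SE 0.064, limma adjusted p 0.47) and -0.093 after GC correction. Bub1 was 7.76, 7.65 and 8.57 in KO and 8.90, 9.38 and 8.55 in WT, where KO 3 lay just above WT 3. Aurka was 21.2, 24.0 and 19.4 in KO and 18.3, 18.7 and 23.1 in WT, with a log2 change of 0.10. Aurkb, which sits in one complex with Birc5, overlapped between the groups, at 17.6, 19.7 and 16.6 in KO and 17.5, 16.8 and 18.6 in WT.

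Plk1, Cdc20 and Bub1b shared the pattern of Aurka, with KO 2 highest. Cdc20 was 30.0, 32.2 and 25.3 in KO and 26.2, 24.8 and 30.4 in WT, and Plk1 was 12.3, 12.7 and 10.5 against 11.1, 10.99 and 12.03. In each of these genes KO 3 was the lowest KO library and WT 3 the highest WT library, so the genotypes overlapped.

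Among the genes of mitotic motors and chromosome proteins, Mki67 varied most between libraries, with a highest value 1.90 times the lowest (1.92 times in Cdk6, the widest of all members). Mki67 encodes the Ki-67 protein that coats mitotic chromosomes, Top2a untangles DNA, Kif11 pushes spindle poles apart, and Cenpe and Cenpf work at the kinetochore. All 5 had a lower mean log2 value in KO, with a median of -0.12, and none passed the test or had groups apart. After GC correction the median was -0.0086.

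Mki67 was 27.3, 43.2 and 38.0 in KO and 44.8, 51.8 and 28.4 in WT. The lowest 2 libraries were KO 1 and WT 3, the groups overlapped, and the log2 change was -0.18 with a 95% interval of -0.74 to 0.38. It was 0.0037 without KO 1. Cenpf was 14.7, 19.4 and 17.5 in KO and 17.9, 23.1 and 15.3 in WT, and Cenpe was 4.43, 5.89 and 5.64 against 6.01, 7.03 and 4.66. KO 1 and WT 3 were again the lowest libraries in both genes, and WT 2 the highest.

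Top2a was 360.7, 377.4 and 384.3 in KO and 418.4, 418.8 and 373.8 in WT, with a log2 change of -0.11 that was -0.00029 after GC correction. Kif11 was 14.8, 16.2 and 15.8 in KO and 17.8, 19.1 and 16.0 in WT, with WT 3 between the KO libraries. Its log2 change of -0.16 (SE 0.085, limma adjusted p 0.48) was -0.046 after GC correction.

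**Figure D3:**
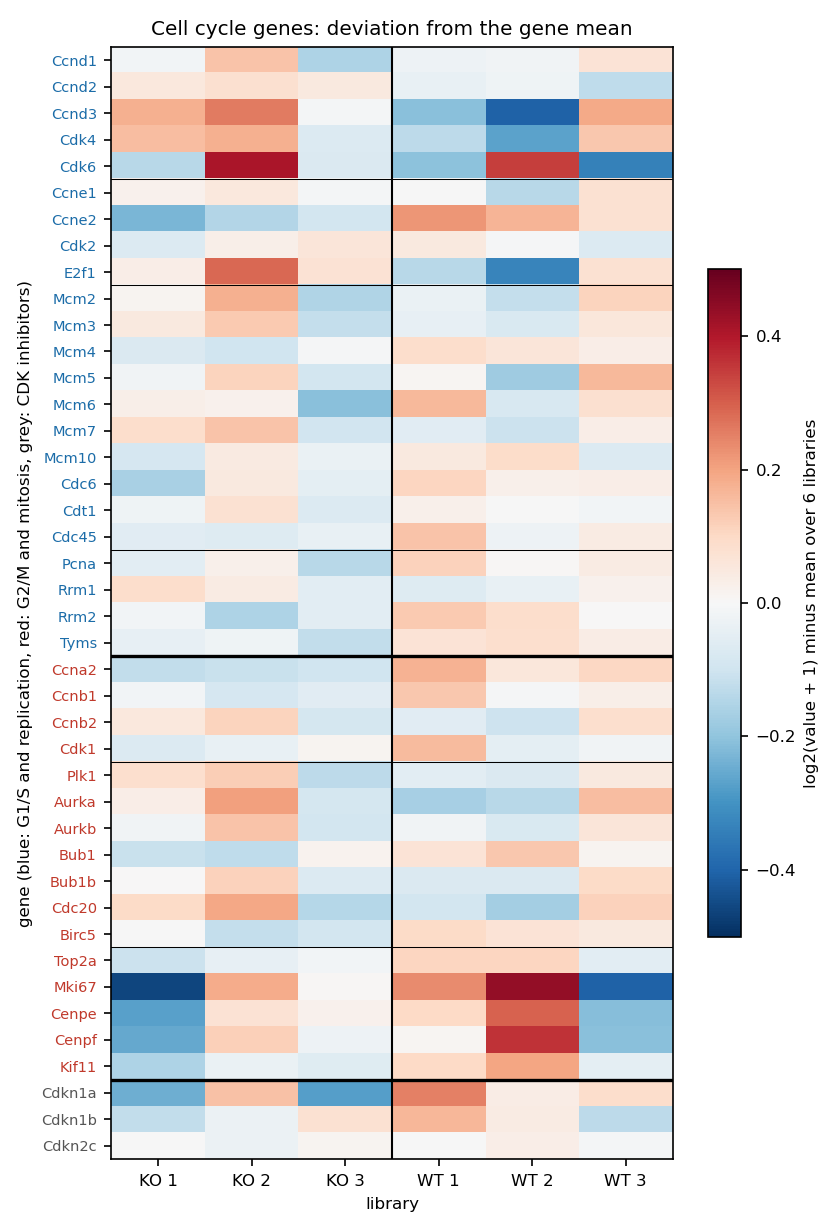
Deviation of each member from its own mean over the 6 libraries, on log2(value + 1), with genes in rows by role and libraries in columns (a black vertical line parts KO from WT, thick horizontal lines part the phases). Mki67, Cenpe and Cenpf are low in KO 1 and WT 3, whereas Ccnd3, Cdk4 and Aurka are high in KO 1, KO 2 and WT 3.

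The CDK inhibitors hold cells back from division. Cdkn1a (p21), which p53 induces, was 18.3, 24.4 and 17.9 in KO and 26.2, 22.5 and 23.3 in WT. KO 1 and KO 3 were below all WT libraries and KO 2 was not, and the log2 change was -0.25 (SE 0.125, limma adjusted p 0.47). After GC correction the change was -0.34, with an unadjusted p of 0.017 and an adjusted p of 0.56 in limma, and it stayed negative in every alternative fit, with an adjusted p of 0.31 to 0.91. Cdkn1b (p27) was 10.2, 10.96 and 11.9 in KO and 12.7, 11.5 and 10.1 in WT, and Cdkn2c (p18) had a KO mean of 1.51 ± 0.0365 and a WT mean of 1.53 ± 0.0409 (SD, n = 3 per group). Neither showed a difference beyond its spread.

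The libraries low in Cdkn1a were also low in an endocrine marker. Neurog3, which drives progenitors into endocrine differentiation, was 34.0, 50.9 and 35.1 in KO and 66.4, 55.4 and 58.3 in WT, so that KO 1 and KO 3 were lowest in both genes. Of 8 tested endocrine markers 7 had a lower mean log2 value in KO, and their summed value was 293.5 to 533 in KO and 397.6 to 536.1 in WT. Their part in the level of Cdkn1a was not tested.

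The base composition of transcripts went along with the direction of the members. GC content here is that of a gene's longest annotated transcript. Of 17 members with a GC content of at least 50%, 13 had a higher mean log2 value in KO, and of 25 members under 50%, 5 did. The same held over all genes, where 79.2% of those at or above 50% and 31.5% of those below were higher in KO. Across the 42 members Pearson's r between GC content and log2 change was 0.62 and Spearman's rho 0.58, as a description across genes that share the same 6 libraries, and over all 13385 tested genes with a GC content rho was 0.62.

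The libraries themselves differed in this respect. Spearman's rho across genes between GC content and a library's deviation was 0.50, 0.61 and -0.19 for the KO libraries and -0.56, -0.66 and 0.40 for the WT libraries. The genotypes overlapped, with WT 3 on the side of KO 1 and KO 2. After correction of each library for GC content, rho over the members was -0.030, and 12 members were higher and 30 lower in KO, where over all genes 8155 were higher and 5230 lower. The median change was then -0.020 for the G1/S genes, -0.018 for the G2/M genes and -0.19 for the inhibitors, against 0.030 for all genes. The 3 inhibitors did not move together: Cdkn1a was at -0.34, Cdkn2c at -0.19 and Cdkn1b at 0.060. Their median is thus the value of Cdkn2c, a low gene with deposited means of 1.51 in KO and 1.53 in WT.

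**Figure D4:**
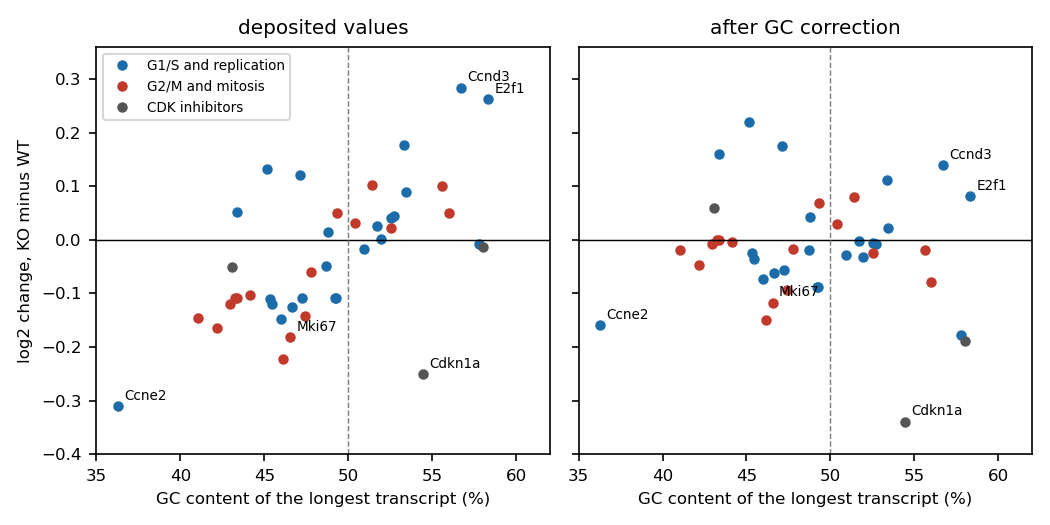
Log2 change of each member, KO minus WT, against the GC content of its longest transcript, from the deposited values (left) and after correction of each library for GC content (right); the dashed line marks 50%. On the left 13 of the 17 members at or above 50% lie above 0 and 20 of the 25 below 50% lie under 0, and on the right Spearman's rho over the members is -0.030.

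Transcript length moved with the libraries in which Mki67, Cenpe and Cenpf were low. Spearman's rho across all tested genes between length and a library's deviation was -0.29, 0.040 and 0.20 in KO 1 to KO 3. In WT 1 to WT 3 it was -0.084, 0.34 and -0.37. The 4 members with the longest transcripts were Cdk6 (11525 bases), Cenpf (11130), Mki67 (10061) and Cenpe (7910), and all 4 were above their own mean in WT 2 and below it in KO 1 and WT 3. Of the other 3 members over 5000 bases, Top2a (5221) shared this pattern, whereas Ccnd2 (6330) and Rrm1 (5475) were above their mean in KO 1 and below it in WT 2. The changes of Mki67, Cenpe and Cenpf were -0.18, -0.12 and -0.11 before any correction. A correction for GC content alone gave -0.12, -0.0086 and -8.3e-06 in the same order. With length added to that correction they were -0.17, -0.045 and -0.061, each further from 0 than with GC content alone. The part of length alone was not tested.

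**Figure D5:**
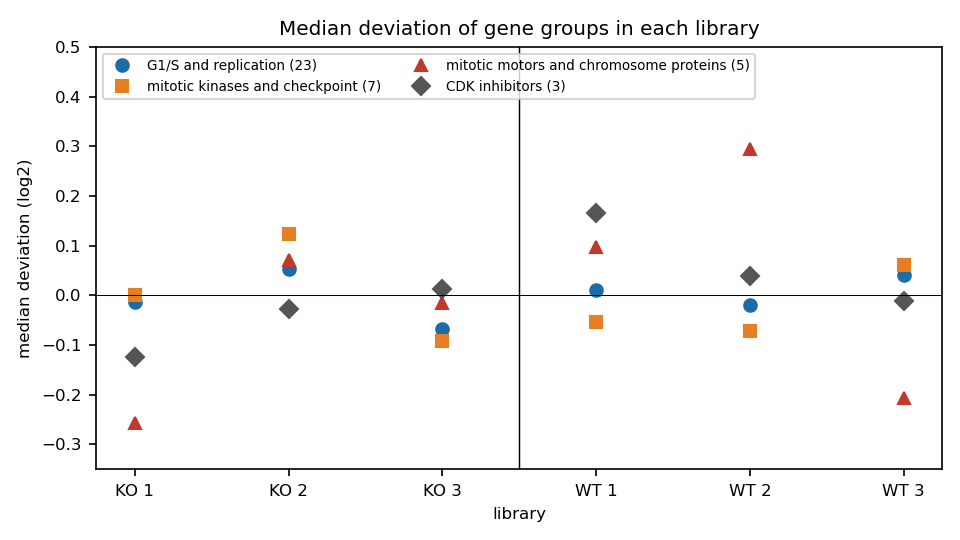
Median deviation from each gene's own mean (log2 units) in each library for the G1/S and replication genes, the mitotic kinases and checkpoint genes, the mitotic motors and chromosome proteins, and the CDK inhibitors (number of genes in brackets). The motor genes are lowest in KO 1 and WT 3 (-0.26 and -0.21) and highest in WT 2 (0.29), while the kinases are highest in KO 2 (0.12).

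Other genes of the same processes, from lists that do not include the members, gave a like result. Of 143 tested genes in 6 lists, 0 passed in limma (0.0144% of all genes did), 3 were higher and 9 lower at an unadjusted p under 0.05 (5.89% and 4.36% of all genes), and 52 were higher and 91 lower in mean log2 value. In 25 of the 143 (17.5%) the KO libraries were entirely below WT, and in 1 entirely above, as in 8.77% and 7.67% of all genes. The median change was -0.053, and -0.0078 after GC correction. After that correction 65 of the 143 were higher and 78 lower, and groups apart were not counted again for these lists.

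Of 39 other replication genes 23 were lower, with a median of -0.040, and of 53 other mitosis genes 38 were lower, with a median of -0.084 (-0.0063 after GC correction). Dbf4, which activates the Cdc7 kinase at origins, was 13.46, 13.72 and 13.48 in KO against 15.5, 16.0 and 14.4. The kinetochore gene Spc25 was 17.7, 17.7 and 18.6 in KO and 21.5, 22.4 and 21.0 in WT, and the cytokinesis gene Ect2 was 34.8, 38.0 and 35.3 against 46.2, 43.0 and 39.5. None of these 3 genes, named for their low p, overlapped between the groups, and each had a limma adjusted p of 0.47. In the deposited values KO lay wholly below WT in 20.5% of the replication list and 22.6% of the mitosis list, against 8.77% of all genes. After GC correction 17 replication genes were higher and 22 lower, and 24 mitosis genes were higher and 29 lower. The log2 changes of Dbf4, Spc25 and Ect2 were -0.16, -0.25 and -0.24. After GC correction they were -0.025, -0.14 and -0.11.

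Of 18 genes of the E2F, Rb and DREAM factors 11 were lower and 7 higher, with none apart. E2f5 was 10.2, 9.81 and 11.6 in KO and 12.8, 12.7 and 10.8 in WT, and Mybl2, a factor of late cycle genes, was 2.46, 2.82 and 2.26 against 1.84, 1.77 and 2.53. Of 17 CDK regulators and ubiquitin ligase genes 9 were higher and 8 lower. Cks2, a small CDK-binding protein, was 58.8, 60.7 and 55.5 in KO and 74.9, 64.8 and 63.5 in WT, and Anapc2, a subunit of the anaphase-promoting complex, was 28.6, 29.5 and 26.5 against 22.1, 22.3 and 27.1. Cks2 was lower in all KO libraries, whereas Anapc2 overlapped at WT 3.

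Further inhibitors and p53 targets were also read. Cdkn1c (p57), an imprinted inhibitor, was 269.3, 219.2 and 262.3 in KO and 263.9, 263.9 and 267.3 in WT, where KO 2 alone stood apart, and Cdkn3 was 3.42, 2.59 and 3.34 against 3.496, 3.40 and 3.67. The log2 change of Cdkn1c was -0.088, and -0.29 after GC correction (limma adjusted p 0.64). Cdkn2a and Cdkn2b stayed under 0.18 in every library and were not tested. Of 14 tested genes in a list of p53 targets that also held Trp53, the p53 gene, 9 were lower and 5 higher. Trp53 was among the higher, with a log2 change of 0.012. Gadd45a, a growth arrest gene, was 11.3, 13.8 and 12.7 in KO and 20.2, 18.3 and 16.3 in WT, all lower in KO, with a log2 change of -0.50 (SE 0.103, unadjusted p 0.0015, limma adjusted p 0.47) that was -0.49 after GC correction. Trp53inp1 was 21.9, 18.1 and 23.2 in KO and 24.9, 26.1 and 22.0 in WT and overlapped.

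Markers of the cell kinds in the tissue were read in the same libraries. The 10 epithelial markers were present in every library, with a summed value of 461 to 696 in KO and 501 to 615 in WT. Of these markers 4 had a higher and 6 a lower mean log2 value in KO, and none had groups apart. After GC correction 2 were higher and 8 lower, with a median of -0.14, against 0.030 for all genes. The mesenchymal markers summed to 638 to 715 in KO and 686 to 694 in WT. The 8 endothelial markers summed to 100.7 to 123.8 in KO and 86.4 to 91.8 in WT, with 5 of 8 above in all KO libraries, as were 7.67% of all genes. Of 7 tested leukocyte markers 2, Tyrobp and Cd68, also lay wholly above in KO, and 1, Lyz2, had a lower mean log2 value. Of 9 tested mesenchymal markers 1, Pdgfrb, lay wholly above and 1, Dcn, wholly below. Of 8 tested endocrine markers 1, Neurog3, lay wholly below, as did 8.77% of all genes. Leukocyte markers summed to 37.3 to 54.7 and 39.9 to 46.8, neural markers to 36.7 to 42.02 and 37.6 to 43.7, and erythroid markers to 465 to 823 and 344 to 775, and no marker was at the floor in all libraries. The part of these cells in the levels of the cell cycle genes was not tested.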

How the data were processed

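Messenger RNA of 6 dorsal pancreas libraries was sequenced, per the labels' protocols with a kit that does not mark strand, so overlapping antisense genes cannot be told apart. The authors deposited 1 signal value per gene and library, with a floor of 0.01. How the authors normalized this signal is not given in the sources used here, so depth is unknown, no counting interval can be given, and levels are not compared between genes. The submitters' processing notes name CASAVA 1.82, Bowtie 0.12.7 and a mouse build, without their roles. Gene symbols were matched to 22624 of 24389 identifiers (92.8%).

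KO was tested against WT on log2(value + 1) in limma (version 3.58.1, under R 4.3.3), two-sided, with variances moderated towards a trend on mean level, for 13911 genes whose mean was 1 or more, with Benjamini-Hochberg adjustment over all of them and a threshold of 0.05. Ratios were compared by an exact permutation test. GC correction subtracted from each library a loess curve (span 0.3) of its deviations on GC content. The script was tested on simulated data with errors drawn independently for each gene. That was a check of the code and not of the p-values in these libraries. The alternatives were other scalings, filters, pseudocounts and moderation, a replicate block, corrections for GC content and length, the side of the first principal component as a term, and leaving out each library.

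Members and lists were chosen with earlier results of these data known. The rule named members with an unadjusted p under 0.05 or groups apart, the member with the lowest p of each role, and the 2 lowest p of each further list (1 of these genes is not reported here); the single values of all other members were named after they were seen. Cdkn2d and Ahsp were not analysed here.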

Additional observations from a re-analysis of the deposited data

How the results depend on the processing

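No member passed the adjusted threshold under any alternative, 0.10 as threshold included, and 23 of 42 members kept the sign of their change in all 19 fits (16 lower, 7 higher). At an unadjusted p under 0.05 there were 2 members, 6 with no filter on low values and 7 without WT 3. The genes called over the whole table numbered 2, 1 with no filter, 0 with the replicate block, 0 with GC correction and the replicate block together, and 4 after correction for GC content and length, an alternative chosen after seeing the data. Leaving out 1 library at a time gave 1 to 8 (8 without KO 2). The cause of these shifts was not tested. Under the replicate block the adjusted p of Bicc1 was 0.088, and 0.062 with GC correction. Deviations of same-numbered libraries correlated at -0.22, -0.40 and -0.64, and no library correlated best with its own number. These deviations also carry the differences between libraries in GC content. The correlations therefore cannot tell whether same-numbered libraries were prepared together.

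The G1/S median ranged from -0.055 (without KO 2) to 0.048 on leaving out a library. The G2/M median of -0.11 was -0.018 with GC correction, -0.018 with GC correction and the replicate block, -0.015 with GC and length correction and -0.035 in a fit with a term for the first principal component's sign, and -0.13 to -0.0085 on leaving out a library. The inhibitor median of -0.051 was -0.19, -0.19 and -0.17 in the 3 corrected fits in the same order, -0.0040 with the term for the first component, and -0.13 to -0.015 on leaving out a library. The other 19 members changed sign in at least 1 fit, among them Ccnb1 (0.018 with GC and length correction), Cdc20 (0.10, and -0.018 with GC correction), Plk1 (0.050, and -0.078 with GC correction) and Mki67 (-0.43 to 0.0037 on leaving out a library, above 0 without KO 1). Outside the members, Cdkn1c ran from -0.14 to 0.0041, above 0 without KO 2. With 3 libraries per group, small differences cannot be resolved.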
